A study of Mus musculus with 18 samples.

Results

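The genes described here encode the nuclear subunits of the mitochondrial respiratory chain and of ATP synthase. They were chosen by symbol: names beginning with Ndufa, Ndufb, Ndufc, Ndufs, Ndufv, Uqcr, Cox4i, Cox5, Cox6, Cox7, Cox8 or Atp5, and the genes Sdha, Sdhb, Sdhc and Sdhd. Of 18193 genes named on the array, 90 met this rule. The rule itself uses no measured value, but it was set with earlier results of these data known. Complex I had 34 members, complex II 4, complex III 8, complex IV 19 and complex V, the ATP synthase, 17. The remaining 8 were Ndufaf genes, assembly factors of complex I whose symbols share the prefix Ndufa. Ndufa4 and Ndufa4l2 were counted with complex IV, in which the Ndufa4 protein resides.

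The chain passes electrons from NADH (through complex I) and from succinate (through complex II) by way of coenzyme Q to complex III, cytochrome c and complex IV, where oxygen is reduced. Complexes I, III and IV pump protons across the inner membrane, and ATP synthase uses the gradient to make ATP. In the liver this supplies ATP for gluconeogenesis and urea synthesis and reoxidises the carriers reduced by fatty acid oxidation. Most subunits are encoded in the nucleus and a few in mitochondrial DNA. Cytochrome P450 reductase, encoded by Por, passes electrons from NADPH to the cytochromes P450 of the endoplasmic reticulum and takes no part in the mitochondrial chain.

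Liver RNA of male mice was measured on 18 Affymetrix Mouse Genome 430 2.0 arrays, in 6 groups of 3 arrays. Controls carried the genotype Alb-Cre-/-/POR-lox+/+ and knockouts Alb-Cre+/-/POR-lox+/+, so both genotypes carried the floxed Por alleles. Cre was driven by the albumin promoter, which is active in hepatocytes, so other liver cells would keep Por. From 4 weeks of age to 12 weeks, mice of each genotype ate an AIN-93G diet with 0.025% cholesterol and 0.008% sodium cholate. The fat was lard, canola oil, or a fish/fungal mixture of 3.27% ARASCO oil and 2.73% menhadin oil. Total fat was 6% in the series description and 7% in the sample labels. Mice fasted for 4 hours before death, and each array held RNA pooled from 3 mice. P-values therefore measure the spread between pools, not between mice.

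All values are log2 intensities. The precision of each is limited by the number of pools. The targeted gene, Por, was not analysed here and so gives no check of the genotypes. All 8 hepatocyte markers were above the array median on all 18 arrays, with Alb between 14.62 and 14.73. In the knockout averaged over diets the 8 differed by -0.21 to 0.00 (median -0.03), with none past the threshold. Their summed log2 level on lard ran from 112.73 to 113.26 over control pools and from 112.10 to 112.56 over knockout pools. On canola oil it ran from 111.17 to 112.55 and from 111.65 to 112.30, and on fish/fungal oil from 111.75 to 112.89 and from 111.58 to 111.99. Among 8 markers of striated muscle, Myh4, Myh6, Tnnt3, Myl1 and Tnni3 were above the array median on 0 arrays and Acta1 on 1, while Actc1 was above it on 15 and Ckm, at 6.12 to 6.62, on 18. Of the 9 Kupffer cell and macrophage markers, 3 rose in the knockout averaged over diets: Cd68 by 0.52, C1qa by 0.40 and C1qb by 0.40 (limma, adjusted p 0.0069, 0.037 and 0.039). All 9 were above 0, at 0.21 to 0.52 (median 0.33), and 4.57% of all genes passed in that comparison. The summed log2 level of the 9 ran from 79.64 to 83.27 over control pools on lard and from 86.01 to 87.22 over knockout pools on lard. On canola oil it ran from 78.05 to 83.41 in controls and from 80.77 to 84.64 in knockouts, and on fish/fungal oil from 83.61 to 84.05 and from 82.16 to 88.84. The 7 stellate cell and fibroblast markers differed by -0.05 to 0.49 (median 0.32), and the 6 endothelial markers by -0.11 to 0.35 (median 0.12), with none past the threshold. Of 2 tested pancreatic acinar markers, Cela1 fell by 0.57 (limma, adjusted p = 0.018), and Prss2 differed by -0.08. The part of cell composition in the values below was not tested, and in bulk liver fewer cells of a type and less RNA per cell cannot be told apart.

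Of the 90 members, 87 were tested, that is, were above the array median on at least 3 arrays, and 84 were above it on all 18. The 3 that were not tested were Cox4i2 and Cox7b2, alternative complex IV subunits, and Ndufb4, a complex I subunit whose only probe set with 1 symbol averaged 3.73. The filter did not use the groups. Cox7a1, Cox7c and Cox8b were the tested members that lay near the array median, above it on 12, 13 and 16 arrays. The array medians lay between 5.229 and 5.286, and Cox6b2, at 5.42 to 5.96, was above them on all 18 arrays by a small margin.

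Promoters are shown because factors known to drive these genes together bind short sequences near their starts. In RefSeq windows on GRCm38.p6, from 250 bases before to 50 after each start, 74 of the 90 members were found, with 79 windows. The motif of nuclear respiratory factor NRF1, GCGCA and GCGC joined by any 1 base, was found on either strand in 18 member windows (22.8%), against 4.6% of 32851 windows of all genes. CCGGAAG, the motif of GABP (also called NRF-2), was in 24.1% against 8.86%. AAGATGGC, the motif of YY1, was in 12.7% against 2.75%. TCAAGGTCA, the motif of the oestrogen-related receptors (ERR), was in only 2 of 79 member windows (2.53%), against 0.423%. TATAAA was in 11.4% against 13.6%. Base composition differed too, with a median GC content of 59% in member windows and 52.7% in all windows. No 2 motifs overlapped in a member window (0 cases), and 32 members held NRF1 or GABP letters. A match describes letters and is not a binding site shown here. The 170 bases directly before the start are printed 5′ to 3′ on the gene's strand for 5 members described below, with NRF1 and GABP matches in capitals. They are Sdha at chr13:74350241-74350410 (minus strand), Sdhd at chr9:50603850-50604019 (minus strand), Atp5h at chr11:115419920-115420089 (minus strand), Cox6a1 at chr5:115348959-115349128 (minus strand) and Cox7a1 at chr7:30184001-30184170 (plus strand).
Sdha: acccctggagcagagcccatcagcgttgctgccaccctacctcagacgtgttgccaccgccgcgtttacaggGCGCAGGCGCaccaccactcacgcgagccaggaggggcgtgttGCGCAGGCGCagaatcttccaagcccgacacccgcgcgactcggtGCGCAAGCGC
Sdhd: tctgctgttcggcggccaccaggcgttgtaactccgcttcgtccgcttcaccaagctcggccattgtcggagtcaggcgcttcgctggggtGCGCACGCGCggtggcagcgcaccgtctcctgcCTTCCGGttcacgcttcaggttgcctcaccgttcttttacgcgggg
Atp5h: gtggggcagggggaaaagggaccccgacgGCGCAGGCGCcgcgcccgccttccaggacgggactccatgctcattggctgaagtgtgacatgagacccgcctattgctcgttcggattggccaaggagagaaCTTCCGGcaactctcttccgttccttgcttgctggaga
Cox6a1: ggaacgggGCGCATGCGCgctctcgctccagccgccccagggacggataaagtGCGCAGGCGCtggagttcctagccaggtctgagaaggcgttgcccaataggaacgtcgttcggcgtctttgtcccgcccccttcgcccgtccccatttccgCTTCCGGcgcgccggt
Cox7a1: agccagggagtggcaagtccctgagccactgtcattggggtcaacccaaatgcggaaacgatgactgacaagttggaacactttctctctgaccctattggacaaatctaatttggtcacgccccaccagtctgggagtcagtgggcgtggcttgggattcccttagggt
Sdha held 3 NRF1 matches in this stretch, the nearest ending at the start itself. Cox6a1 held NRF1 letters at 162 to 153 and 117 to 108 bases upstream and GABP letters at 16 to 10. Sdhd and Atp5h each held 1 match of each motif. Cox7a1, the subunit form typical of heart and skeletal muscle, held no match of either in its 170 bases, which says nothing about the factors themselves.

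**Figure D1:**
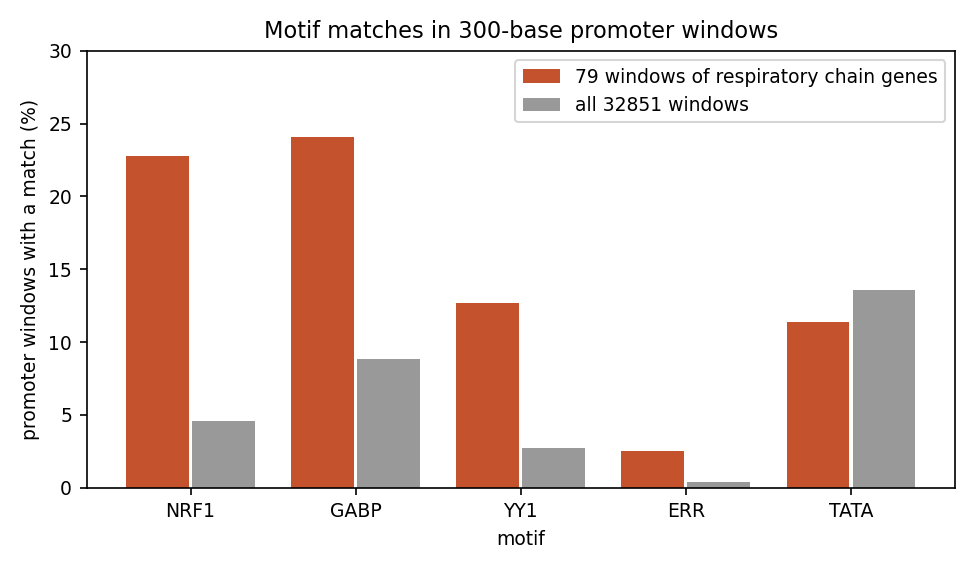
Share of promoter windows of 300 bases that hold each motif, in percent, for the 79 windows of respiratory chain members and for the 32851 windows of all genes. NRF1, GABP and YY1 letters were in 22.8%, 24.1% and 12.7% of member windows, against 4.6%, 8.86% and 2.75% of all windows.

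Members differed little between knockout and control livers. Averaged over the 3 diets, the knockout-minus-control difference had a median of -0.03 over the 87 members and ran from -0.27 (Cox7a1) to 0.09 (Uqcrfs1, the Rieske iron-sulfur protein of complex III). No member passed an adjusted p of 0.05 in limma with Benjamini-Hochberg adjustment over all 12578 genes (0 of 87), while 575 genes did (4.57%), 480 of them higher and 95 lower in the knockout. At an unadjusted p under 0.05 there were 6 members (6.9%), all lower in the knockout. They were Uqcrc2, Cox7a1, Ndufv3, Atp5h, Atp5d and Uqcrq. Of all 12578 genes, 18% had such a p in either direction, 1449 higher and 813 lower. The smallest adjusted p of a member was 0.18.

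Each interval describes the signal of 1 probe set and was computed for that gene alone, so the 87 do not hold jointly at 95%. For 84 of 87 members (96.6%) the 95% interval of the averaged knockout effect lay within 1.25-fold either way, against 81.2% of all genes. The exceptions were Cox7a1, Cox7c and Uqcrc2, and all 87 intervals lay within 1.5-fold. The median absolute difference was 0.04 in members and 0.07 in all genes, and 9 members exceeded 0.1. Spread between pools of a group was also smaller, with a median SD of 0.113 in members and 0.145 in all genes. Most members lay well above the array median, and they were not compared with genes of like intensity in these shares, differences or spreads.

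**Figure D2:**
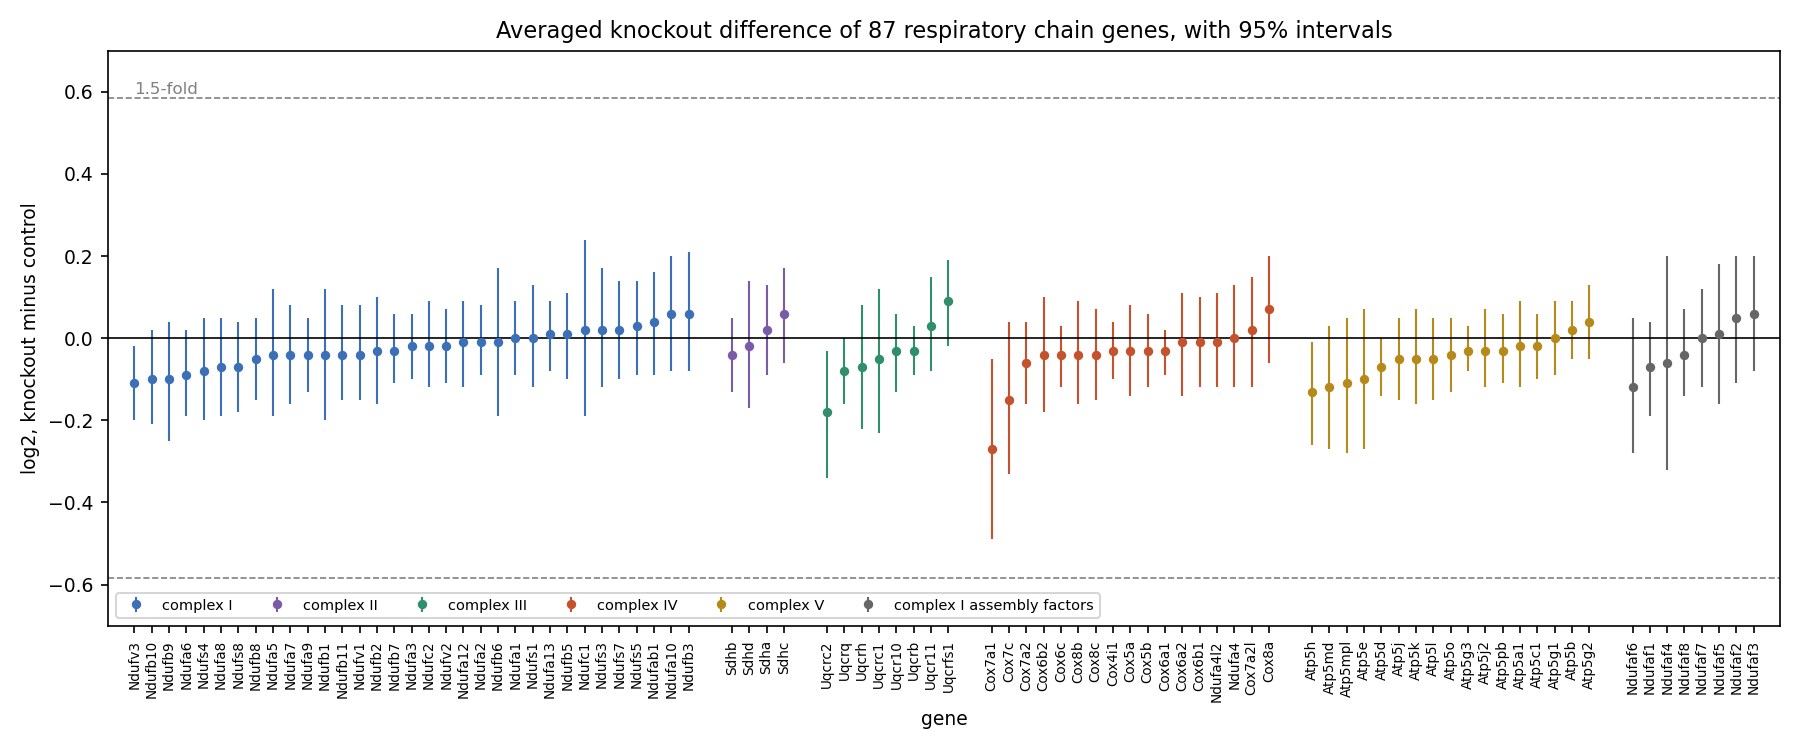
Knockout minus control, averaged over 3 diets, on the log2 scale, for each of the 87 members tested, grouped by complex; points are estimates and bars 95% intervals. Cox7a1 lies lowest at -0.27, and no member passed an adjusted p of 0.05.

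**Figure D3:**
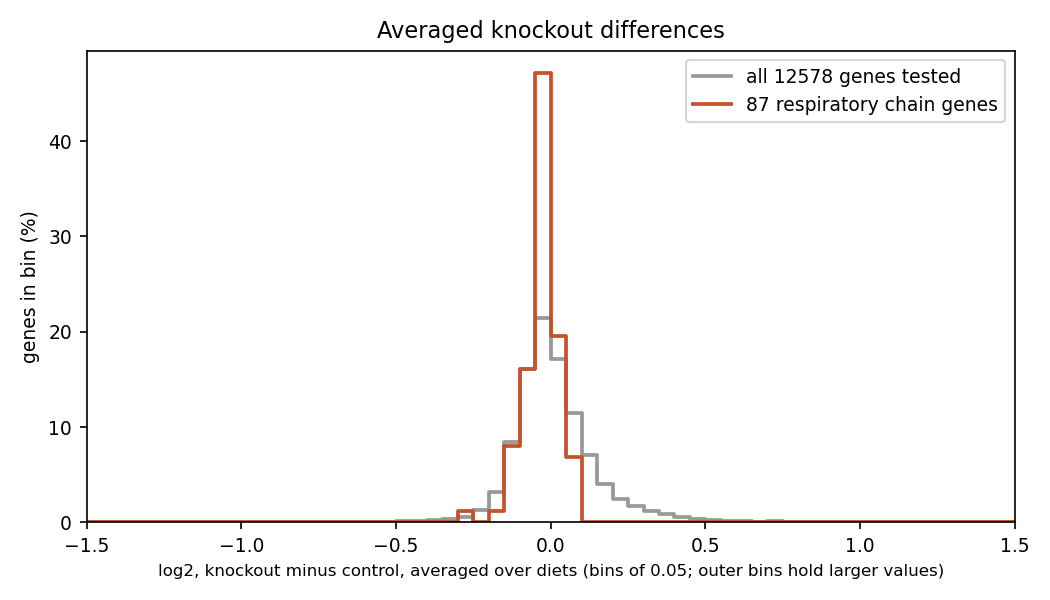
Distribution of the averaged knockout effect on the log2 scale for the 87 members and for all 12578 genes tested. The members' median is -0.03, and 64 of the 87 values lie below 0.

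Most of the small differences pointed down. Of 87 members, 64 were below 0 (73.6%), against 52% of all genes. Where quantile normalization was repeated, 76 were below 0 (87.4%), and where arrays were centred, 71. On single diets the members below 0 were 51 on lard, 56 on canola oil and 65 on fish/fungal oil, against 61, 65 and 62 after centring. All 3 diets gave a value below 0 for 25 members (28.7%, against 21.8% of genes) and above 0 for 1 member, Uqcrfs1 (1.15%, against 23.9%). These counts describe signs and carry no test, since subunits measured on the same arrays do not vary independently. By complex, 23 of 33 complex I members were below 0 (median -0.02), 2 of 4 in complex II (0.00), 6 of 8 in complex III (-0.04), 14 of 17 in complex IV (-0.03) and 15 of 17 in complex V (-0.04). The assembly factors divided evenly, with 4 of 8 below 0.

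Within single diets, again no member was called by limma (0 of 87 on each diet). On lard 124 genes passed (0.986%), and at an unadjusted p under 0.05 there were 0 members and 10.5% of genes. On canola oil 8 genes passed (0.0636%), with 0 members and 6.14% of genes at an unadjusted p under 0.05. On fish/fungal oil 37 genes passed (0.294%). Unadjusted, there were 3 members (Ndufv3, Uqcrc2 and Atp5d, all lower) and 7.62% of genes in either direction, 587 higher and 372 lower. The member medians were -0.01 on lard, -0.02 on canola oil and -0.05 on fish/fungal oil. Single pools moved them: on lard the median was -0.05 with 72 members below 0 without control pool 2, and 0.02 with 38 below 0 without control pool 1. On canola oil it was 0.00 with 43 below 0 without control pool 2, and on fish/fungal oil -0.01 with 51 below 0 without knockout pool 3 and -0.10 with 71 below 0 without knockout pool 1. Pools of the 2 genotypes did not overlap for 3 members on lard (all genes 16.0%), 3 on canola oil (11.3%) and 10 on fish/fungal oil (10.9%), the last being 11.5% of the 87. A test of whether the knockout effect depended on diet called 0 members and 0 genes (0%), and at an unadjusted p under 0.05 it gave 0 members and 1.92% of genes.

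Complex I takes electrons from NADH. Its 6 core subunits in the nucleus carry the flavin and iron-sulfur clusters, and 3 of them were below 0 in the averaged knockout effect (median -0.01). Ndufs1, the largest core subunit, differed by 0.00 (95% interval -0.12 to 0.13), and Ndufv1, which binds NADH and the flavin, by -0.04 (-0.15 to 0.08). Of the 27 accessory subunits, 20 were below 0 (median -0.03). Ndufv3, an accessory subunit of the NADH-binding module, was at 12.01, 11.98 and 11.99 in control pools and 12.05, 11.97 and 11.94 in knockout pools on lard. On canola oil it was at 11.98, 12.21 and 12.06 in controls and 12.00, 11.90 and 11.98 in knockouts. On fish/fungal oil it was at 12.14, 12.02 and 12.26 in controls and 12.01, 11.84 and 11.95 in knockouts. The genotypes overlapped on lard and canola oil, and on fish/fungal oil every knockout pool lay below every control pool. The averaged difference was -0.11 ± 0.04 (SE, 9 pools a genotype; adjusted p = 0.19 in limma).

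Ndufb9, an accessory subunit of the membrane arm, differed by -0.10 ± 0.07 (limma, adjusted p = 0.47), the second-largest size in complex I. Its 18 values ran from 12.52 to 13.14, and the highest were control canola pool 2 (13.14) and control fish/fungal pool 3 (13.11). Those 2 pools were also the highest for Atp5h and Ndufv3 on their diets. They had 3'-minus-5' differences of the Actb control probe sets, a measure of RNA integrity, of 1.08 and 0.92, within a range of 0.54 to 1.08 over arrays. Mean Actb differences were 0.77 in controls and 0.69 in knockouts on lard, 0.82 and 0.71 on canola oil, and 0.89 and 0.77 on fish/fungal oil. The same difference for the Gapdh control probe sets ran from -0.15 to 0.19 over arrays. With the mean of the Actb and Gapdh differences as a covariate, limma called 0 members for the averaged knockout effect, and 63 of 87 were below 0.

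Complex II is succinate dehydrogenase, shared with the tricarboxylic acid cycle. Sdha, the flavoprotein whose promoter holds 3 NRF1 matches above, was at 12.51, 12.45 and 12.37 in control and 12.39, 12.33 and 12.36 in knockout pools on lard. On canola oil it was at 12.50, 12.31 and 12.31 in control and 12.52, 12.44 and 12.30 in knockout pools, and on fish/fungal oil at 12.37, 12.16 and 12.15 and at 12.23, 12.52 and 12.19. The genotypes overlapped on canola and fish/fungal oil and, on lard, the highest knockout pool (12.39) exceeded the lowest control pool (12.37). The averaged knockout differences were 0.02 for Sdha (95% interval -0.09 to 0.13), -0.04 for the iron-sulfur subunit Sdhb (-0.13 to 0.05), 0.06 for the membrane anchor Sdhc (-0.06 to 0.17) and -0.02 for the anchor Sdhd (-0.17 to 0.14). By diet, the medians of the 4 were -0.09 on lard, 0.05 on canola oil and 0.08 on fish/fungal oil, with no member called.

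Complex III passes electrons from coenzyme Q to cytochrome c. Uqcrc2, one of its large core subunits, was at 11.68, 11.93 and 11.73 in control and 11.59, 11.49 and 11.90 in knockout pools on lard. On canola oil it was at 11.85, 12.01 and 11.96 in controls and 11.64, 11.74 and 12.06 in knockouts. On fish/fungal oil it was at 11.86, 12.05 and 11.89 in controls and 11.46, 11.61 and 11.83 in knockouts. Only on fish/fungal oil were all knockout pools below all control pools. The averaged difference was -0.18 ± 0.07 (95% interval -0.34 to -0.03; adjusted p = 0.18 in limma), and that on fish/fungal oil was -0.30 ± 0.12 (adjusted p = 0.58). A second Uqcrc2 probe set, above the median on all 18 arrays, differed by 0.00, so the probe sets disagree. Uqcrfs1, the one member above 0 on every diet, differed by 0.09 ± 0.05 (limma, adjusted p = 0.37), and its 18 values ran from 11.78 to 12.14.

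Complex IV reduces oxygen. Several of its subunits have an alternative form in muscle, lung or testis, and the forms are given in turn. Among the common forms, Cox6a1, with NRF1 and GABP letters above, varied little, between 13.64 and 13.75 over all 18 arrays. Its averaged knockout difference was -0.03 (95% interval -0.09 to 0.02). Cox4i1, at 13.07 to 13.30, differed by -0.03 (-0.10 to 0.04), and its alternative Cox4i2 was above the array median on 0 arrays. Cox6b1 differed by -0.01 (-0.12 to 0.10), Cox7a2 by -0.06 (-0.16 to 0.04) and Cox7a2l, a factor of supercomplex assembly, by 0.02 (-0.12 to 0.15). Among 6 tested alternative forms, 6 of 6 were below 0 with a median of -0.04 and none called. The alternatives Cox6a2 and Cox8b differed by -0.01 (-0.14 to 0.11) and -0.04 (-0.16 to 0.09), and the testis form Cox8c by -0.04 (-0.15 to 0.07). Ndufa4 differed by 0.00 and its relative Ndufa4l2 by -0.01.

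Cox7a1 had the largest difference, though it lies near the array median. Its control pools were at 5.75, 5.59 and 5.35 on lard, 5.45, 5.75 and 5.14 on canola oil, and 5.29, 5.42 and 5.58 on fish/fungal oil. Its knockout pools were at 5.03, 5.38 and 5.77, then 5.06, 5.10 and 5.38, then 5.31, 5.04 and 4.80. The genotypes overlapped on every diet, and 1 knockout pool on lard was the highest value of all. The averaged difference was -0.27 ± 0.11 (0.829-fold, 95% interval 0.71 to 0.969; adjusted p = 0.18 in limma). Cox7c, a common subunit whose best probe set was above the median on 13 arrays, differed by -0.15 ± 0.09 (adjusted p = 0.4 in limma).

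Complex V makes ATP. Atp5h, a subunit of the peripheral stalk with NRF1 and GABP letters above, was at 13.14, 13.00 and 13.12 in control and 13.05, 13.10 and 12.91 in knockout pools on lard. On canola oil it was at 13.10, 13.43 and 13.04 in controls and 13.06, 13.07 and 13.01 in knockouts, and on fish/fungal oil at 13.21, 13.03 and 13.35 and at 13.16, 12.97 and 12.87. The genotypes overlapped on each diet, and the controls held the high values, 13.43 and 13.35. The averaged difference was -0.13 ± 0.06 (limma, adjusted p = 0.23), and a second Atp5h probe set gave -0.07. Atp5d, the delta subunit, at the foot of the central stalk of the catalytic part, differed by -0.07 ± 0.03 (limma, adjusted p = 0.25). On fish/fungal oil, where its pools did not overlap, Atp5d differed by -0.13. A second Atp5d probe set, above the median on all 18 arrays, gave an averaged difference of -0.02. The 3 genes for the same c-ring protein, Atp5g1, Atp5g2 and Atp5g3, differed by -0.00, 0.04 and -0.03. All 5 small subunits of the membrane part were below 0, with a median of -0.05, the largest difference being that of Atp5md at -0.12 ± 0.07 (limma, adjusted p = 0.42).

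**Figure D4:**
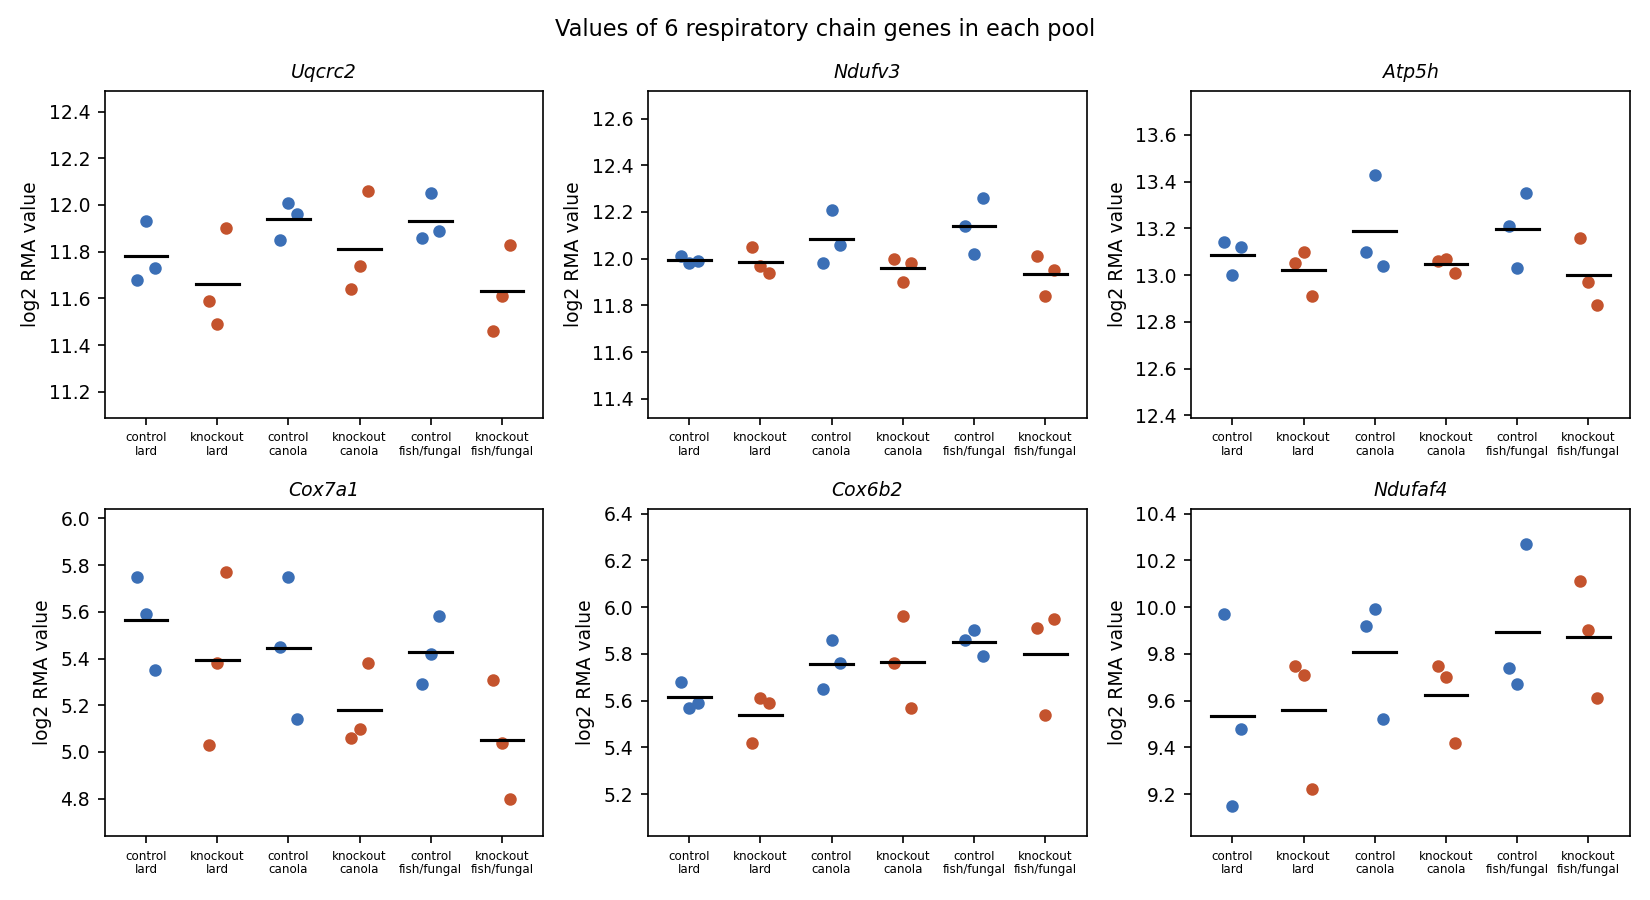
Log2 values of named members in each of the 18 pools by genotype and diet; points are pools, the black bar is the mean of 3 pools, controls are blue and knockouts red. Each panel has its own axis and levels are not compared between genes; for Cox7a1, one knockout pool on lard at 5.77 lies above every control pool.

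Among the complex I assembly factors, Ndufaf6 differed by -0.12 ± 0.08 (limma, adjusted p = 0.47) and Ndufaf1, which is needed to build the membrane arm, by -0.07 ± 0.06 (adjusted p = 0.55 in limma). Ndufaf4, another assembly factor, had the widest range over arrays among the members, 1.12, and differed by -0.06 ± 0.12. A second Ndufaf4 probe set gave -0.29.

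Differences between diets were also small. Against lard, fish/fungal oil gave a median of 0.04 over members averaged over genotypes, with 65 above 0 and 22 below. Without control lard pool 2 the median was 0.02 and 34 were below 0. No member was called by limma (0 of 87, all genes 2.32%), and the smallest adjusted p was 0.14. At an unadjusted p under 0.05 there were 4 members (4.6%), all higher. They were Cox6b2, Ndufaf4, Atp5k and Ndufb3. Of all 12578 genes, 13.1% had such a p in either direction, 636 higher and 1012 lower. By complex, 29 of 33 complex I members were above 0 (median 0.06), 15 of 17 in complex IV (0.04) and 11 of 17 in complex V (0.04), whereas 1 of 4 was in complex II (-0.06) and 3 of 8 in complex III (-0.01).

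Cox6b2, the testis form of a complex IV subunit, was at 5.68, 5.57 and 5.59 in control and 5.42, 5.61 and 5.59 in knockout pools on lard. On fish/fungal oil it was at 5.86, 5.90 and 5.79 in control and 5.91, 5.54 and 5.95 in knockout pools. These values lie close to the array medians. One knockout pool on fish/fungal oil, at 5.54, fell among the lard pools, and the others lay above all 6 of them. The difference was 0.25 ± 0.08 (95% interval 0.08 to 0.42; adjusted p = 0.14 in limma), and without that pool it was 0.31 with an adjusted p of 0.025, the sole setting that called a member.

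Ndufaf4 differed by 0.34 ± 0.15 between fish/fungal oil and lard (limma, adjusted p = 0.34), and 0.31 on its second probe set. Ndufb6 and Ndufb3, accessory subunits of the complex I membrane arm, differed by 0.22 ± 0.11 and 0.19 ± 0.08 (adjusted p 0.39 and 0.35 in limma). A second Ndufb6 probe set, above the median on all 18 arrays, gave 0.06, so the size for Ndufb6 depends on the probe set. Atp5md and Atp5mpl, small membrane subunits of ATP synthase, differed by 0.17 and 0.15, and all 5 of that group were above 0. Sdha and Sdhd were at -0.13 each (limma, adjusted p 0.4 and 0.6), Cox7a1 at -0.24 ± 0.13 (0.47), and Uqcrc2 and Uqcrh at 0.07 and 0.04. Second probe sets above the median on all 18 arrays gave -0.17 for Sdha and -0.05 for Sdhd.

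Canola oil against lard called 0 members and 0 genes (0%). At an unadjusted p under 0.05 it gave 4 members, all higher, and 6.77% of genes in either direction, 243 higher and 609 lower. Its median was 0.03, with 73 of 87 above 0, including 32 of 33 in complex I, with 82 above 0 after centring. Without control lard pool 2 the median was 0.01, and 32 members were below 0 in place of 14. Fish/fungal against canola oil called 0 members and 124 genes (0.986%), and had a member median of 0.00 with 45 above 0. Unadjusted, it gave 2 members, both lower, and 9.68% of genes in either direction, 642 higher and 576 lower. These 3 diet comparisons share groups, so their values are not independent of each other.

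Averaged per pool over members of a complex, as the deviation from each gene's mean over 18 arrays, complex I was at -0.035 ± 0.104 (SD, n = 3) in controls and -0.036 ± 0.059 in knockouts on lard. It was at 0.017 ± 0.065 and 0.006 ± 0.028 on canola oil, and at 0.054 ± 0.065 and -0.005 ± 0.079 on fish/fungal oil. The genotypes differed on each diet by less than the SD of either group. The highest and lowest of the 6 group means lay 0.090 apart, and the pooled SD within groups was 0.070. That SD describes single pools, not a range of 6 means, so it cannot show whether the groups differed, and no test was run. Over all members the lowest pool was control lard 2 (-0.102) and the highest control fish/fungal 3 (0.098), so both extremes were controls. Complex V ran from -0.032 ± 0.033 (knockout, lard) to 0.043 ± 0.053 (control, fish/fungal), complex IV from -0.022 ± 0.025 (knockout, canola oil) to 0.045 ± 0.046 (control, fish/fungal), complex III from -0.041 ± 0.048 (knockout, fish/fungal) to 0.052 ± 0.050 (control, canola oil) and complex II from -0.061 ± 0.013 (control, fish/fungal) to 0.050 ± 0.032 (knockout, canola oil).

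**Figure D5:**
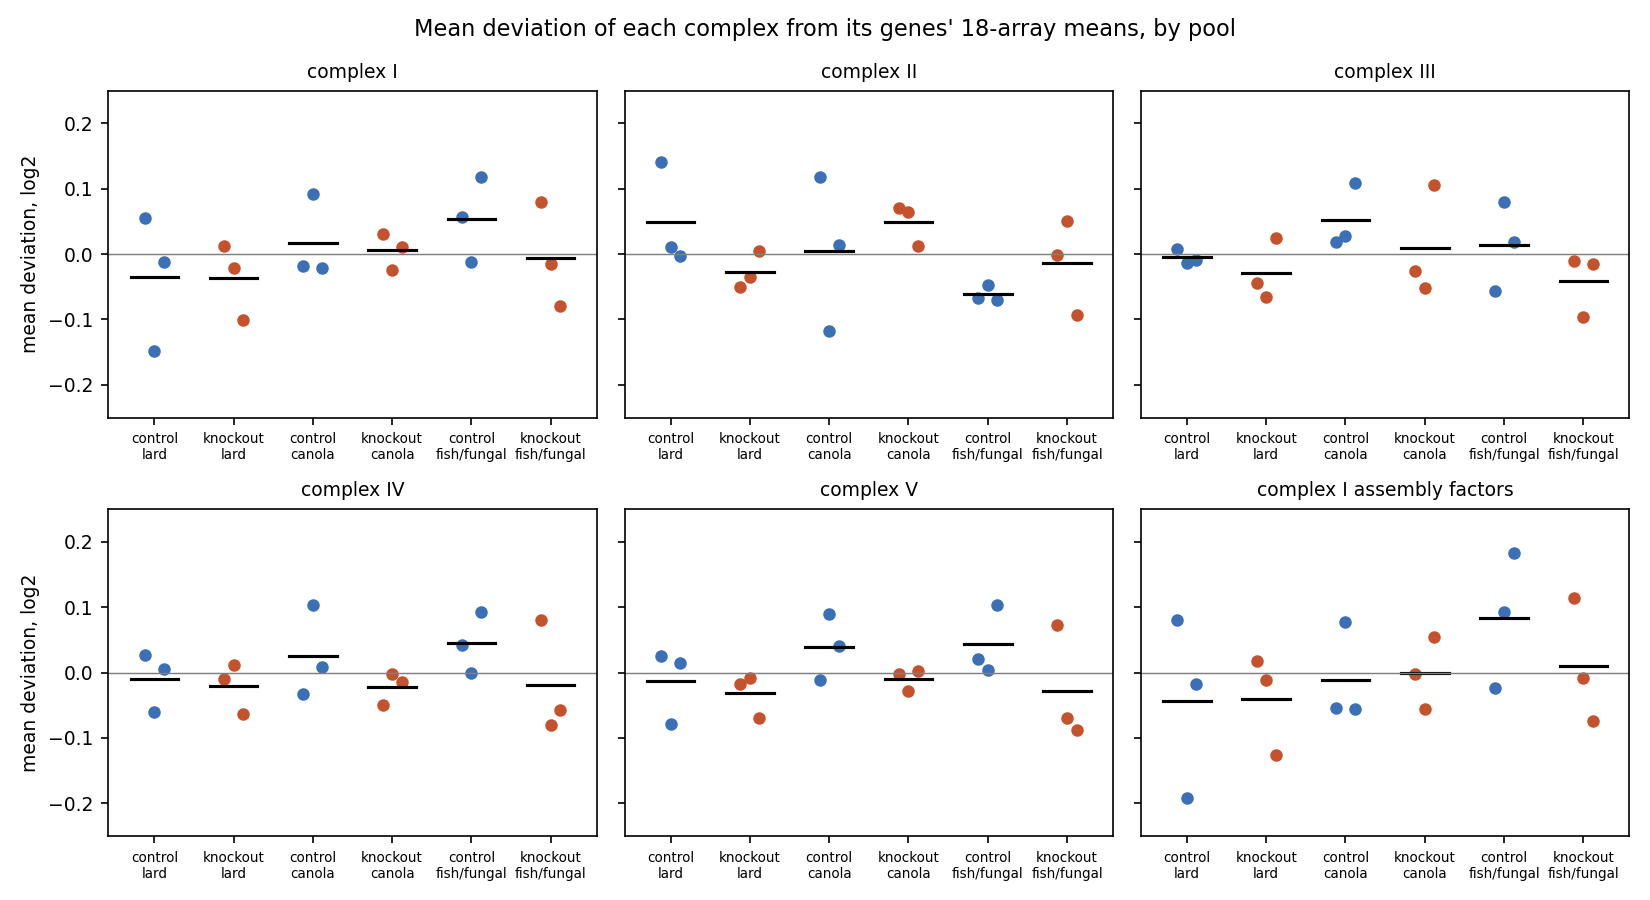
Mean log2 deviation of each complex's tested members from their own mean over 18 arrays, by genotype and diet; points are pools and the black bar is the mean of 3, with controls in blue and knockouts in red. In complex I the control means run from -0.035 on lard to 0.054 on fish/fungal oil, and single pools of a group overlap those of others.

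Other genes of the pathway were compared in the same fit, averaged over diets, where 4.57% of all genes passed. The 2 of 40 assembly factors that passed are a share near that background, and the other lists are too short for their counts of 0 to 2 to be read against it. ND5 was the 1 mitochondrially encoded subunit of 13 on the array and differed by -0.01 (limma, adjusted p = 0.88). Among 8 electron carriers, including Cyc1 and Cycs, 0 passed, and the largest difference was that of Gpd2 at -0.21 ± 0.09 (limma, adjusted p = 0.25). Of 40 tested assembly factors, Sco1, which delivers copper to complex IV, fell by 0.31 ± 0.08 (limma, adjusted p = 0.025), and Ecsit, a complex I assembly factor, fell by 0.20 ± 0.05 (0.049). In coenzyme Q synthesis, 1 of 12 passed: Coq7 rose by 0.28 ± 0.07 (limma, adjusted p = 0.03). Among 16 genes listed with the tricarboxylic acid cycle, Idh2 rose by 0.64 ± 0.07 (limma, adjusted p = 6.6e-05) and Mdh2 by 0.19 ± 0.05 (0.038). The other isocitrate dehydrogenase genes of that list, Idh3a, Idh3b and Idh3g, differed by 0.02, -0.02 and 0.11, with none passing. Of 8 tested genes of uncoupling and adenine nucleotide exchange, 1 passed: Slc25a4, a carrier that exchanges ADP for ATP, rose by 0.28 ± 0.07 (limma, adjusted p = 0.039). Slc25a4 averaged 7.43 over the arrays. Slc25a5, another such carrier, averaged 13.03 and differed by -0.01 ± 0.05. Among 14 regulators of mitochondrial biogenesis none passed (limma, 0 of 14, smallest adjusted p 0.26). Ppargc1a was at -0.24 ± 0.16 and Ppargc1b at -0.23 ± 0.11, and not passing does not show that a gene was unchanged. Between fish/fungal oil and lard, Dlat, a pyruvate dehydrogenase subunit, fell by 0.44 (limma, adjusted p = 0.0067), and it was the sole gene of these lists to pass.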

How the data were processed

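The values are log2 intensities that the authors deposited in a table of 45101 probe sets and 18 arrays, for which the submitters' processing notes name RMA. RMA subtracts background, normalizes arrays to a common distribution and summarises probes, so a shift shared by all genes would not show. Probe sets were named through the platform annotation, updated by gene ID to RefSeq symbols: 34945 had 1 symbol, 932 several and 9160 none, and only the first were used. Each gene took its probe set with the highest mean. Genes above the array median on at least 3 arrays were tested (12578). One limma fit (version 3.58.1, R 4.3.3) of 6 group means used all 18 arrays, with eBayes and an intensity trend, moderated intervals and Benjamini-Hochberg adjustment over all genes tested, called at 0.05. The script was tested on simulated data. Members and lists were chosen with earlier results of these data known. Named genes were the 2 members of each complex with the largest change in each of 2 comparisons, the Sdh genes and the isoform pairs, with others chosen after their values were seen. Replicates of a group correlated at 0.99322 to 0.99717, and 0 pairs of arrays were identical. Alternatives covered scaling, filters, probe sets, weights, RNA integrity, blocks and single arrays left out.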

Additional observations from a re-analysis of the deposited data

How the results depend on the processing

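Every alternative called 0 members in each comparison but one: fish/fungal oil against lard gave 0 to 1 members when single arrays were left out, the 1 being Cox6b2 (0.31, adjusted p = 0.025 in limma) without knockout fish/fungal replicate 2. Uqcrh in that comparison ran from -0.01 to 0.08 with single arrays left out (0.04 with all), the value being -0.01 without knockout lard replicate 3, control fish/fungal replicate 3 or knockout fish/fungal replicate 1; the cause was not tested. The smallest adjusted p of a member ran from 0.069 to 0.28 for the averaged knockout effect and from 0.025 to 0.3 for fish/fungal oil against lard. With the replicate number as a block, 0 members were called in all 8 comparisons. After each gene's group mean was subtracted, same-numbered arrays of different groups correlated at -0.40 to 0.46, and 17 of 45 pairs exceeded 0.1. The mean was -0.00 for these pairs and 0.00 for differently numbered arrays of different groups. For 6 of 18 arrays, the most correlated array of another group had the same number. What the number stands for was not tested. Repeating quantile normalization raised the members below 0 in the averaged knockout effect from 64 to 76, and centring raised it to 71. Genes called overall ran from 370 (without knockout canola replicate 2) to 846 (array weights) for the averaged knockout effect, 30 to 182 on lard, 1 to 90 on canola oil, 13 to 43 on fish/fungal oil, 199 to 369 for fish/fungal oil against lard, 76 to 160 against canola oil and 0 to 4 for canola oil against lard. Signal near background limits Cox7a1, Cox7c, Cox8b and Cox6b2.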
